A study of Mus musculus with 9 samples.

Results

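The expression of 35 genes of the peroxisome proliferator-activated receptor (PPAR) and fatty acid oxidation pathways was followed in the trunk epidermis of newborn mice with and without 12R-lipoxygenase. The members were the 3 PPAR genes, targets of these receptors, fatty acid binding and uptake genes, and the enzymes of the mitochondrial and peroxisomal oxidation of fatty acids. Each was found by its symbol in the annotation of the Affymetrix mouse genome array, using probe sets that name a single gene. A gene was read from its brightest such probe set, by the mean of the 9 arrays. This gave values for 33 of the 35 members, among 18193 genes in all, from 61 probe sets. Ucp2 and Cpt1b had no probe set naming them alone and were not analysed here.

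The series compares 4 arrays labelled Alox12b-KO with 5 arrays labelled wildtype. All mice were newborns killed at birth, from matings of heterozygous Alox12b knockout parents, and the labels give the strain of the wildtype samples as 129S6 and none for the knockout samples. Epidermis was lifted off the dermis after 30 seconds in phosphate-buffered saline at 56 °C. The labels call the samples biological replicates without saying that each was 1 animal, so the p-values measure the spread between these samples. They do not say which part of Alox12b was deleted.

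Fatty acids that enter a cell are held by fatty acid binding proteins, activated to acyl-CoA and carried into mitochondria by the carnitine shuttle. There they are shortened in cycles of 4 reactions, dehydrogenation, hydration, a second dehydrogenation and thiolysis, and electrons from the first step pass to the respiratory chain through the electron transfer flavoprotein. PPARs are nuclear receptors that bind fatty acids and their oxidised derivatives, pair with retinoid X receptors and raise the transcription of many of these genes. In keratinocytes PPARs are known to promote differentiation and lipid barrier formation, and 12R-lipoxygenase oxidises linoleate esterified in epidermal acylceramides.

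Alox12b itself read 10.84 to 11.60 on the knockout arrays and 10.56 to 11.32 on the wildtype arrays on the log2 scale. The sources used here do not say where its probes lie against the deleted part, so the value checks nothing about the labels, and groups are named as labelled. Xist, the RNA of the inactive X chromosome, read 9.99 to 10.20 on all 4 knockout arrays and 10.95 on wildtype array 4, but 3.23 to 4.32 on the other wildtype arrays. Genotype and sex pattern therefore cannot be told apart except through wildtype array 4. Knockout arrays 3 and 4 had the narrowest spread over all 45037 probe sets, with SDs of 2.05 and 2.03, while the other arrays had SDs of 2.14 to 2.24. The keratinocyte marker Krt1 read 14.06 ± 0.05 (SD, n = 4) and 14.02 ± 0.03 (SD, n = 5), close to the highest value of the table, 14.46.

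The question was which members differ between knockout and wildtype epidermis. No member passed an adjusted p of 0.05 (limma, Benjamini-Hochberg over 18193 genes), a threshold that 1.24% of all genes passed, 0.511% as higher and 0.731% as lower in knockout. At that rate a count of 0 of 33 says little about the members. The direction was nearly uniform: 29 of the 33 members read lower in knockout, where 46.5% of all genes did. Their median difference, knockout minus wildtype, was -0.35 on the log2 scale, against 0.02 over all genes. An unadjusted limma p under 0.05 was reached by 11 members as lower and 1 as higher, where 10.7% of all genes were lower and 7.08% higher by that rule. With each array left out in turn, the count of 11 ran from 6, without knockout array 3 or wildtype array 3, to 14, and it was 7 without knockout array 4. The groups did not overlap for 3 members with lower knockout values, Slc25a20, Acot2 and Acadm, and for 1 with higher values, Fabp5. Over all genes 5.14% were lower and 3.14% higher without overlap.

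Level mattered to this background. Of the 33 members, 27 had a mean above the median gene, and in that brighter part of the array 63% of 9096 genes read lower in knockout, with a median difference of -0.10. There 18.6% of genes were lower with an unadjusted p under 0.05, and 10 of the 27 brighter members were. With quantile normalization of the arrays, 26 of 33 members still read lower, their median difference was -0.24, and 8 were lower with an unadjusted p under 0.05, where 8.66% of all genes were.

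**Figure D1:**
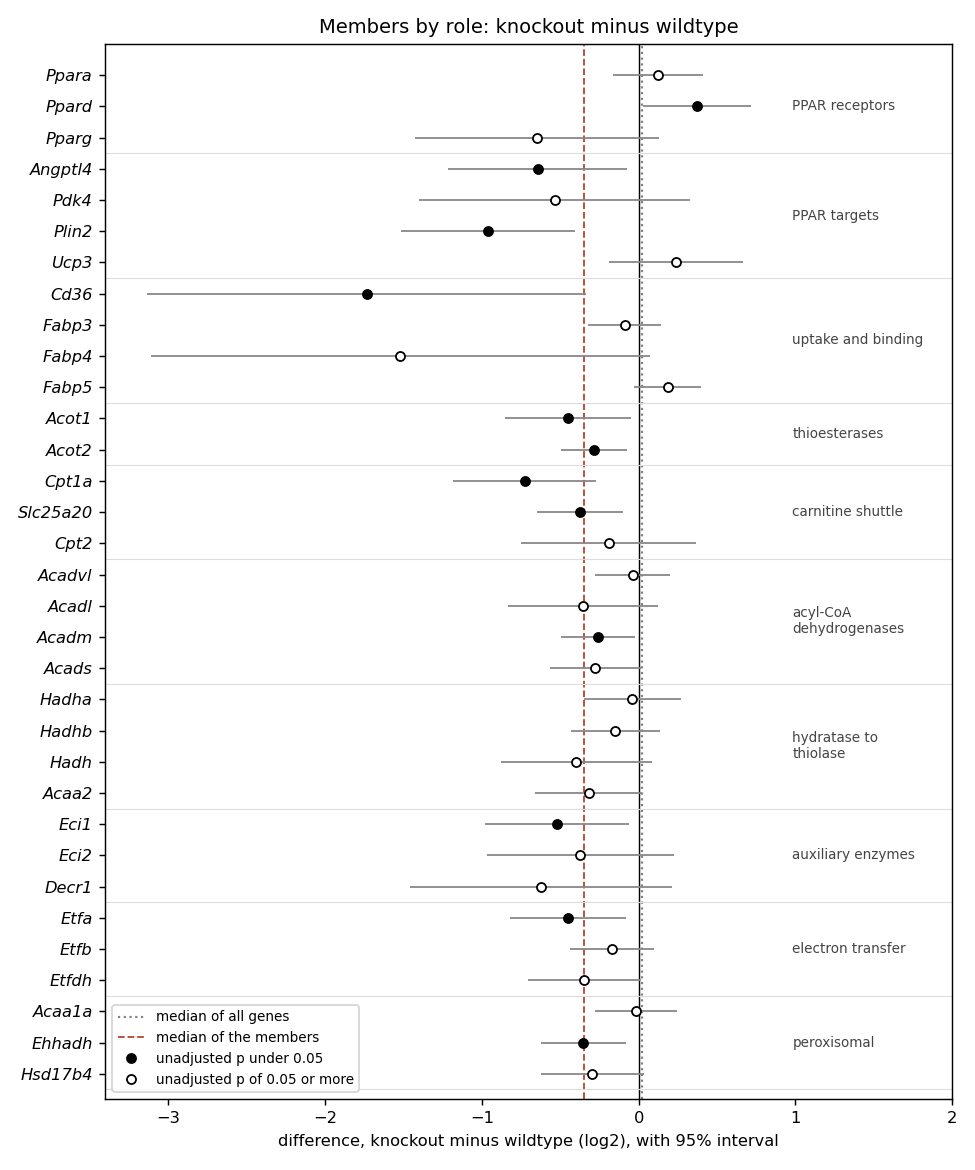
Difference between knockout and wildtype for each of the 33 members (points, log2, knockout minus wildtype) with its 95% interval from limma (lines), grouped by role. Filled points have an unadjusted p under 0.05, the dotted line is the median of all genes (0.02) and the dashed line the median of the members (-0.35). Of the points, 29 lie left of 0.

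PPARs bind DNA at 2 copies of the hexamer AGGTCA in tandem with 1 base between them. RefSeq promoter windows on GRCm38.p6 were found for 28 of the 35 members, in 30 windows, and the 250 bases before the gene start were searched on both strands. The full element, written AGGTCANAGGTCA, was in 0 of the 30 windows and in 0.0335% of all 32851. The single hexamer was in 8 windows of 7 members, Acadm, Acadvl, Cd36, Cpt1a, Plin2, Pparg and Ucp3, and in 14% of all windows. A match describes the letters only, and elements elsewhere in a gene were not searched. The windows shown are those of the 4 members that held the hexamer and had an unadjusted p under 0.05. They are given 5′ to 3′ along the gene and end at the base before its start, with the hexamer, here always as its reverse complement TGACCT, in capitals. They lie at chr4:86670060-86670309 for Plin2 (minus strand), chr19:3323051-3323300 for Cpt1a (plus strand), chr5:17835897-17836146 for Cd36 (minus strand) and chr3:153944644-153944893 for Acadm (minus strand).
Plin2: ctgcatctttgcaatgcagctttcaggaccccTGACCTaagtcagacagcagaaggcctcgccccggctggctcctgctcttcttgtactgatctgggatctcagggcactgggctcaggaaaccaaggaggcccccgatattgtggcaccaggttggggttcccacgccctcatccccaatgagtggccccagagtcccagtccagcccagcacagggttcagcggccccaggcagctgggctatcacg
Cpt1a: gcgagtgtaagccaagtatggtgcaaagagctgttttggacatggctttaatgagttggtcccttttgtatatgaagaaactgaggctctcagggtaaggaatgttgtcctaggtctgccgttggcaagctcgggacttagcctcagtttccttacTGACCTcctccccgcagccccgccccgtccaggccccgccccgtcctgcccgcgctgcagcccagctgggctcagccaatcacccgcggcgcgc
Cd36: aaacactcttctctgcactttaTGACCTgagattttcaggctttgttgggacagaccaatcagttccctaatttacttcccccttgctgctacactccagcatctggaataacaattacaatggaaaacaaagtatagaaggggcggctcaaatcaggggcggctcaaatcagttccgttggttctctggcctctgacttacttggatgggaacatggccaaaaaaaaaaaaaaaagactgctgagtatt
Acadm: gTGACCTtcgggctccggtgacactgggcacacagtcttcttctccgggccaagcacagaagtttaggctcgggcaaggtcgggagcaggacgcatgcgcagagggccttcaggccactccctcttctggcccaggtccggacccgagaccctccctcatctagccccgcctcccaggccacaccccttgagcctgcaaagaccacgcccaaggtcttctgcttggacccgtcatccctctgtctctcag
In these windows the hexamer started 218 bases before the gene start for Plin2, 94 for Cpt1a, 228 for Cd36 and 249 for Acadm. No entry was found for Angptl4, Cpt1b, Fabp4, Fabp5, Acaa2, Decr1 and Hsd17b4.

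Among the receptors, Ppard, the form that predominates in keratinocytes, was the 1 member with a higher level and an unadjusted p under 0.05. It read 6.24, 6.11, 5.97 and 5.66 on knockout arrays 1 to 4 and 5.72, 5.73, 5.89, 5.35 and 5.42 on wildtype arrays 1 to 5. Only knockout array 4 lay within the wildtype range. The difference was 0.37 with a 95% interval of 0.03 to 0.72, and the limma adjusted p was 0.252. Its dimmer probe set differed by 0.40 without overlap, with knockout values of 4.17 to 4.23 and wildtype values of 3.47 to 4.00. Ppara, the receptor that drives oxidation in liver, read 4.08 ± 0.07 (SD, n = 4) against 3.95 ± 0.22 (SD, n = 5), with dimmer probe sets at -0.04 and -0.01. Pparg, the receptor of fat cells and sebocytes, read 2.50 to 2.68 on the knockout arrays. On wildtype arrays 1 to 5 it read 2.45, 2.63, 4.55, 3.42 and 3.08, so that array 1 lay below the knockout range, array 2 within it and arrays 3 to 5 above it. Its difference of -0.65 had an interval of -1.42 to 0.13.

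Of the PPAR targets outside oxidation, Plin2, which coats lipid droplets, had the lowest p of all members. It read 5.65, 5.92, 5.85 and 6.40 on knockout arrays 1 to 4 and 7.10, 7.02, 7.42, 6.99 and 6.07 on wildtype arrays 1 to 5. Wildtype array 5 lay below knockout array 4, and the other wildtype arrays lay above every knockout array. The knockout mean was 1.95-fold lower, a log2 difference of -0.96 with a 95% interval of -1.52 to -0.41 and a limma adjusted p of 0.0955. Without wildtype array 5 the difference was -1.17 and passed, with a limma adjusted p of 0.0104, where 281 of all genes passed. With any other single array left out Plin2 did not pass, at limma adjusted p values of 0.113 to 0.195. By unadjusted p with all arrays Plin2 ranked 551 among all genes.

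Angptl4, a secreted inhibitor of lipoprotein lipase and a standard PPAR target, read 3.93, 4.18, 3.96 and 4.11 on the knockout arrays. The wildtype values were 3.77, 4.52, 5.32, 4.91 and 4.91, and array 1 alone was below the knockout range. The difference was -0.64 with an interval of -1.21 to -0.07 and a limma adjusted p of 0.236. That probe set is of a less specific kind, and the other one of Angptl4, near the low end of the table, differed by -0.03. Pdk4, the kinase that shuts pyruvate out of oxidation, read 3.03 on wildtype array 1, below the knockout range of 3.43 to 4.42, and 4.44, 4.98, 5.11 and 4.83 on wildtype arrays 2 to 5, above it. Ucp3, a mitochondrial carrier best known from muscle, read 4.02 ± 0.36 (SD, n = 4) against 3.78 ± 0.28 (SD, n = 5), a difference of 0.24 with an interval of -0.19 to 0.66. Of these 4 measured targets 3 read lower.

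The largest differences of all members were in fatty acid uptake and binding. Cd36, a membrane receptor that takes up long-chain fatty acids, read 4.83, 4.71, 3.42 and 4.55 on the knockout arrays and 3.93, 5.82, 7.60, 6.01 and 7.19 on the wildtype arrays. The mean was 3.33-fold lower in knockout, a log2 difference of -1.73 with an interval of -3.13 to -0.33 and a limma adjusted p of 0.203. Wildtype array 1 lay inside the knockout range and the other wildtype arrays above it. All 3 probe sets of Cd36 read lower in knockout, by -1.73, -1.88 and -0.37. The last of these had means of 2.15 in knockout and 2.52 in wildtype, near the low end of the table.

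Fabp4, the binding protein of adipocytes and capillary endothelium, read 7.96, 7.99, 5.78 and 7.93 on the knockout arrays and 6.68, 8.43, 10.58, 9.70 and 9.29 on the wildtype arrays. The difference was -1.52 with an interval of -3.11 to 0.07, and an unadjusted limma p of 0.0593. Knockout array 3 and wildtype array 1 were the lowest, and the remaining wildtype arrays exceeded every knockout array. Its 4 probe sets disagreed, at -1.52 and -1.14 for the brighter pair and at 0.40 and 0.00 for the dimmer pair. The dimmer pair had group means of only 3.10 to 3.81. Some adipocyte markers shared with both genes the lowest wildtype value on array 1 and the highest on array 3. Adipoq, the adipocyte hormone adiponectin, read 4.27, 3.79, 3.01 and 2.42 on the knockout arrays and 2.83, 6.36, 9.46, 7.53 and 5.98 on the wildtype arrays. Among the knockout arrays Adipoq was lowest on array 4, but Cd36 and Fabp4 on array 3. Dgat2, the brightest marker of the list, had means of 10.59 in knockout and 10.60 in wildtype. Of 15 adipocyte markers 12 were measured and 9 read lower in knockout. Of these, 3 were lower with an unadjusted p under 0.05 and 0 passed the adjusted threshold in limma. By that unadjusted rule 10.7% of all genes and 18.6% of the brighter genes were lower. The mean level of the markers ran from 4.50 to 4.76 in knockout and from 4.30 on wildtype array 1 to 6.96 on wildtype array 3. Their part in the values of Cd36, Fabp4, Pparg, Angptl4 and Decr1 was not tested. In such bulk samples, fewer cells of a type and less RNA per cell cannot be told apart.

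**Figure D2:**
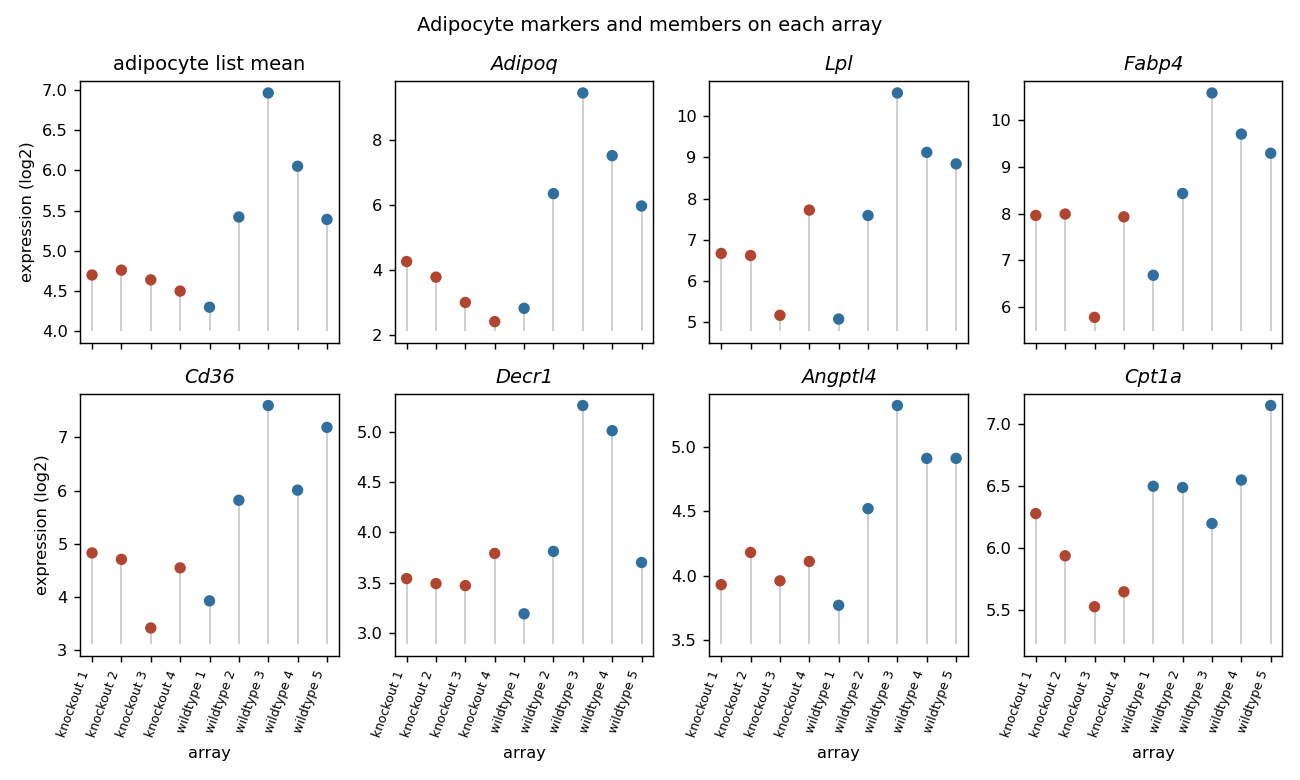
Log2 level on each of the 9 arrays (points, knockout in red, wildtype in blue, each panel on its own scale) of the adipocyte marker list mean, of Adipoq and Lpl, and of 5 members. Wildtype array 1 is the lowest wildtype array and array 3 the highest in every panel but that of Cpt1a.

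The mean of the adipocyte markers was highest on wildtype arrays 3 and 4. A fit without these 2 arrays was chosen after seeing the data. In it the difference was -1.27 for Cd36, -0.72 for Fabp4, -0.86 for Cpt1a and -0.77 for Plin2. Adipoq still read 6.36 and 5.98 on the remaining wildtype arrays 2 and 5, and the part of adipocytes was not tested. In that fit 27 of the 33 members read lower. There 3 had an unadjusted p under 0.05 as lower, where 8.19% of all genes were lower by that rule. The other binding proteins behaved otherwise. Fabp5, the epidermal form and one of the most strongly expressed keratinocyte genes, read 13.97, 14.05, 13.85 and 13.94 on the knockout arrays and 13.78, 13.78, 13.76, 13.82 and 13.71 on the wildtype arrays. Every knockout value was above every wildtype value, though the difference was 0.18, with an interval of -0.03 to 0.40. These values lay close to the highest of the table, 14.46. Its dimmer probe set differed by 0.29, with an unadjusted limma p of 0.0207. There the groups overlapped, with knockout array 4, at 11.98, inside the wildtype range of 11.77 to 12.06. Fabp3, the muscle form, read 2.79 ± 0.04 (SD, n = 4) and 2.88 ± 0.14 (SD, n = 5), levels near the low end of the array, whose lowest value was 1.43.

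Both acyl-CoA thioesterase genes, whose products release free fatty acids from acyl-CoA in the cytosol (Acot1) and the mitochondria (Acot2), were lower with an unadjusted p under 0.05. Acot2 read 7.69, 7.70, 7.53 and 7.61 in knockout and 7.92, 7.83, 7.97, 7.92 and 7.95 in wildtype, without overlap. Its difference was small, at -0.28, with an interval of -0.50 to -0.07 and a limma adjusted p of 0.181. Acot1 read 7.46 ± 0.32 (SD, n = 4) against 7.91 ± 0.28 (SD, n = 5). It differed by -0.45, and the limma adjusted p was 0.240. Wildtype arrays 2 and 4, at 7.59 and 7.62, lay inside its knockout range. Acot1 and Acot2 are near copies of each other on chromosome 12, so the split of their signal between probe sets is uncertain.

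In the carnitine shuttle, Cpt1a makes acylcarnitine at the outer mitochondrial membrane and is the rate-setting step of long-chain oxidation. It read 6.28, 5.94, 5.53 and 5.65 in knockout and 6.50, 6.49, 6.20, 6.55 and 7.15 in wildtype. Wildtype array 3 lay just below knockout array 1, and the other values did not overlap. The mean was 1.66-fold lower in knockout, a log2 difference of -0.73 with an interval of -1.18 to -0.27 and a limma adjusted p of 0.120. Its dimmer probe sets differed by -1.14 and -0.48, the latter with means of 2.19 in knockout and 2.67 in wildtype, near the low end of the table. Slc25a20, the translocase that carries acylcarnitine through the inner membrane, read 6.97, 7.02, 6.85 and 6.50 in knockout and 7.19, 7.25, 7.17, 7.13 and 7.29 in wildtype, without overlap. It differed by -0.37, with an interval of -0.65 to -0.10 and a limma adjusted p of 0.178, and its dimmer probe set by -0.59, also without overlap. Cpt2, which restores acyl-CoA inside the mitochondrion, read 5.66 ± 0.26 (SD, n = 4) against 5.85 ± 0.53 (SD, n = 5), a difference of -0.19 with an interval of -0.75 to 0.37.

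**Figure D3:**
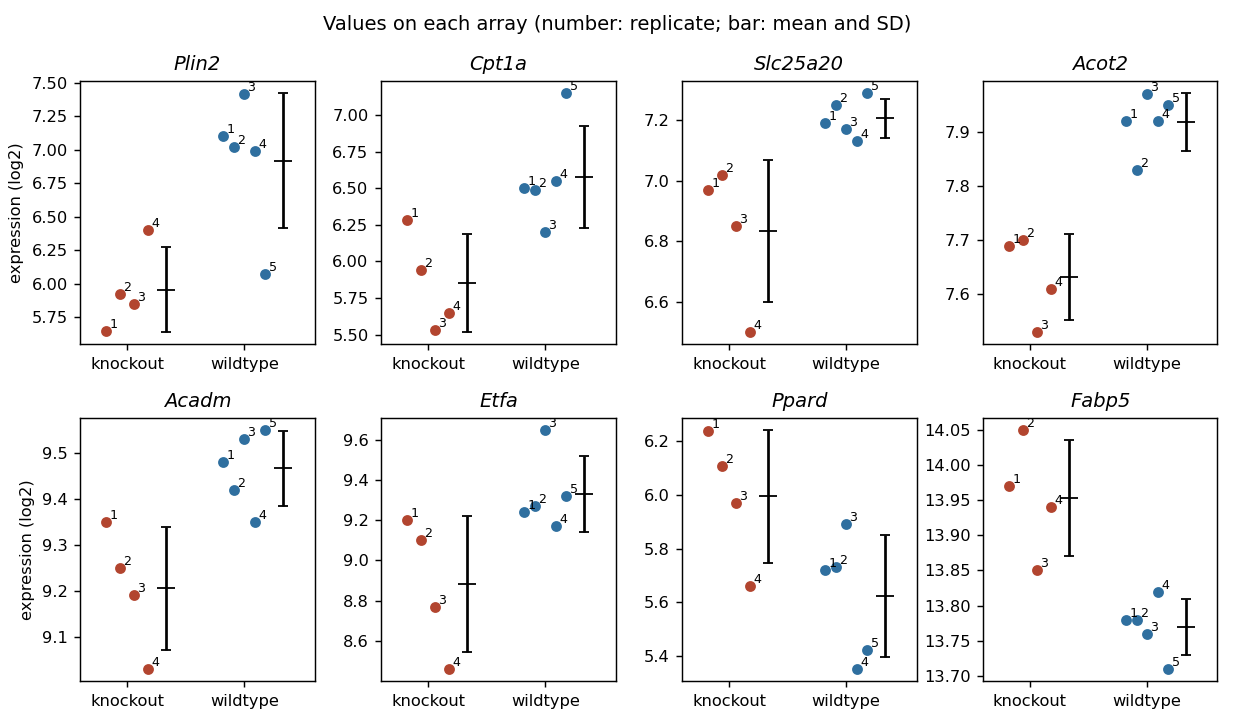
Log2 values of 8 members on each array (points, numbered by replicate, knockout in red and wildtype in blue) with the group mean and SD (bars), each panel on its own scale. Slc25a20, Acot2 and Acadm are lower and Fabp5 is higher in knockout without overlap, while Plin2, Cpt1a, Etfa and Ppard each overlap.

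The acyl-CoA dehydrogenases, which take the first step of each cycle at different chain lengths, were all lower in mean. Acadm, the medium-chain enzyme, read 9.35, 9.25, 9.19 and 9.03 in knockout and 9.48, 9.42, 9.53, 9.35 and 9.55 in wildtype. The groups met at 9.35 without crossing, and the difference was -0.26, with an interval of -0.49 to -0.02 and a limma adjusted p of 0.245. Acadl, a long-chain enzyme, read 8.52 and 8.48 on knockout arrays 1 and 2, within the wildtype range of 8.36 to 8.82, and 8.05 and 7.43 on knockout arrays 3 and 4. Its difference was -0.35 with an interval of -0.83 to 0.12. Acads, the short-chain enzyme, showed the same division, at 5.39 and 5.45 against 4.99 and 5.02, with wildtype at 5.37 to 5.66. Acadvl, the very-long-chain enzyme of the inner membrane, read 8.03 ± 0.14 (SD, n = 4) and 8.06 ± 0.09 (SD, n = 5), and the interval of its difference, -0.28 to 0.20, included 0.

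Hadha and Hadhb encode the subunits of the mitochondrial trifunctional protein, which carries out the later steps on long chains. Hadha read 8.00 ± 0.29 (SD, n = 4) against 8.04 ± 0.06 (SD, n = 5), a difference of -0.04 with an interval of -0.35 to 0.27. Hadhb read 9.16 ± 0.15 (SD, n = 4) against 9.30 ± 0.19 (SD, n = 5), a difference of -0.15 with an interval of -0.43 to 0.14. Both genes start from the same stretch of chromosome 5 in opposite directions, with 272 bases between their starts, and their 250-base windows share 228 bases. The window of Hadhb, on the plus strand at chr5:30155003-30155252, is shown because most of it is shared with that of Hadha. It held no AGGTCA on either strand.
Hadhb: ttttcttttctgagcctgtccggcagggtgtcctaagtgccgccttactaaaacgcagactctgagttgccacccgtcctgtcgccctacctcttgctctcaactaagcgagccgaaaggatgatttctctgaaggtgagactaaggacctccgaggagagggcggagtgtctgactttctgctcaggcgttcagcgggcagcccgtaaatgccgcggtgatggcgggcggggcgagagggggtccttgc
The dimmest of the 3 probe sets of Hadhb behaved differently from the brighter ones. It read 3.72, 3.85, 3.56 and 3.74 in knockout and from 4.17 to 4.90 in wildtype, a difference of -0.84. When every probe set was tested, it was the only one of the 61 member probe sets to pass, with a limma adjusted p of 0.0298. Of all 45037 probe sets 498 passed, so 1 of 61 lies near the background. With each array left out in turn the adjusted p of this probe set ran from 0.0161 to 0.0847. Leaving out any knockout array, or wildtype array 1, 2 or 4, took it past 0.05. The probe set of middle level differed by -0.25 with an unadjusted limma p of 0.223.

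Hadh, the dehydrogenase for medium and short chains, read 10.93, 10.76, 10.17 and 9.92 in knockout and 10.65, 10.65, 10.66, 11.04 and 11.21 in wildtype. Its difference was -0.40 with an interval of -0.88 to 0.09. Acaa2, the thiolase that ends the cycle, read 8.91, 8.83, 8.39 and 8.27 against 8.84, 8.87, 8.77, 8.98 and 9.13, a difference of -0.32. For both genes knockout arrays 1 and 2 lay within the wildtype range and arrays 3 and 4 below it. The dimmer probe sets of Acaa2 differed by -0.46 and -0.97.

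The auxiliary enzymes prepare unsaturated fatty acids such as linoleate for the cycle. Eci1, an isomerase that moves double bonds, read 4.05, 3.77, 4.34 and 4.02 in knockout and 4.13, 4.23, 4.86, 5.11 and 4.51 in wildtype. The difference was -0.52 with an interval of -0.98 to -0.06 and a limma adjusted p of 0.232. Decr1, the dienoyl-CoA reductase, read 3.54, 3.49, 3.47 and 3.79 against 3.19, 3.81, 5.26, 5.01 and 3.70. Its difference of -0.62 rested on wildtype arrays 3 and 4, and was 0.00 without them. Eci2, a second isomerase, read 4.98 ± 0.21 (SD, n = 4) and 5.35 ± 0.60 (SD, n = 5). Its wildtype values were 5.42 to 5.80 on arrays 1 to 4 and 4.33 on array 5.

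The electron transfer flavoprotein passes electrons from the acyl-CoA dehydrogenases to its oxidoreductase, Etfdh, and on to ubiquinone. Etfa, its alpha subunit, read 9.20, 9.10, 8.77 and 8.46 in knockout and 9.24, 9.27, 9.65, 9.17 and 9.32 in wildtype. Only knockout array 1 lay above the lowest wildtype value. The difference was -0.45 with an interval of -0.82 to -0.08 and a limma adjusted p of 0.211. Etfb, the beta subunit, read 7.86 ± 0.12 (SD, n = 4) against 8.03 ± 0.17 (SD, n = 5), a difference of -0.17 with an interval of -0.44 to 0.10. Etfdh read 6.97, 7.09, 6.67 and 6.44 against 7.16, 7.11, 7.29, 6.79 and 7.35, a difference of -0.35 with an interval of -0.71 to 0.01.

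In peroxisomes, which shorten very long and branched chains, Hsd17b4 carries out the middle steps. It read 8.13, 8.04, 7.87 and 7.52 in knockout and 7.96, 8.37, 8.30, 8.06 and 8.25 in wildtype, a difference of -0.30 with an interval of -0.62 to 0.03. Ehhadh, the inducible enzyme for the same steps, read 2.25, 1.80, 2.00 and 1.90 against 2.24, 2.27, 2.30, 2.55 and 2.34. Its difference was -0.35 with an unadjusted limma p of 0.0154. These levels lie near the lowest value of the table, and whether they are above background was not tested. Acaa1a, the peroxisomal thiolase, read 6.89 ± 0.14 (SD, n = 4) and 6.91 ± 0.14 (SD, n = 5), and its interval ran from -0.28 to 0.24.

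The 17 measured genes of the mitochondrial pathway, from the carnitine shuttle to the electron transfer flavoprotein, all read lower in mean, with a median difference of -0.35. Of these, 5 had an unadjusted p under 0.05, where 10.7% of all genes and 18.6% of the brighter genes were lower by that rule. Their arrays were not alike within the knockout group. Set against each gene's wildtype mean, their median deviation was -0.12 on knockout array 1, -0.16 on array 2, -0.41 on array 3 and -0.49 on array 4, and on the wildtype arrays it ran from -0.08 to 0.12. Knockout array 4 held the lowest of the 9 values for 9 of these 17 genes. The genes brighter than the median gene moved with this, with median deviations of -0.02, -0.05, -0.14 and -0.22 on knockout arrays 1 to 4 and -0.04 to 0.09 on the wildtype arrays. Knockout arrays 3 and 4 were also those with the smallest SD over probe sets. The part of this narrower spread in the lower values was not tested. Over all 33 members, the highest of the 9 values was on wildtype array 3 for 11, wildtype array 5 for 8 and wildtype array 4 for 7.

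**Figure D4:**
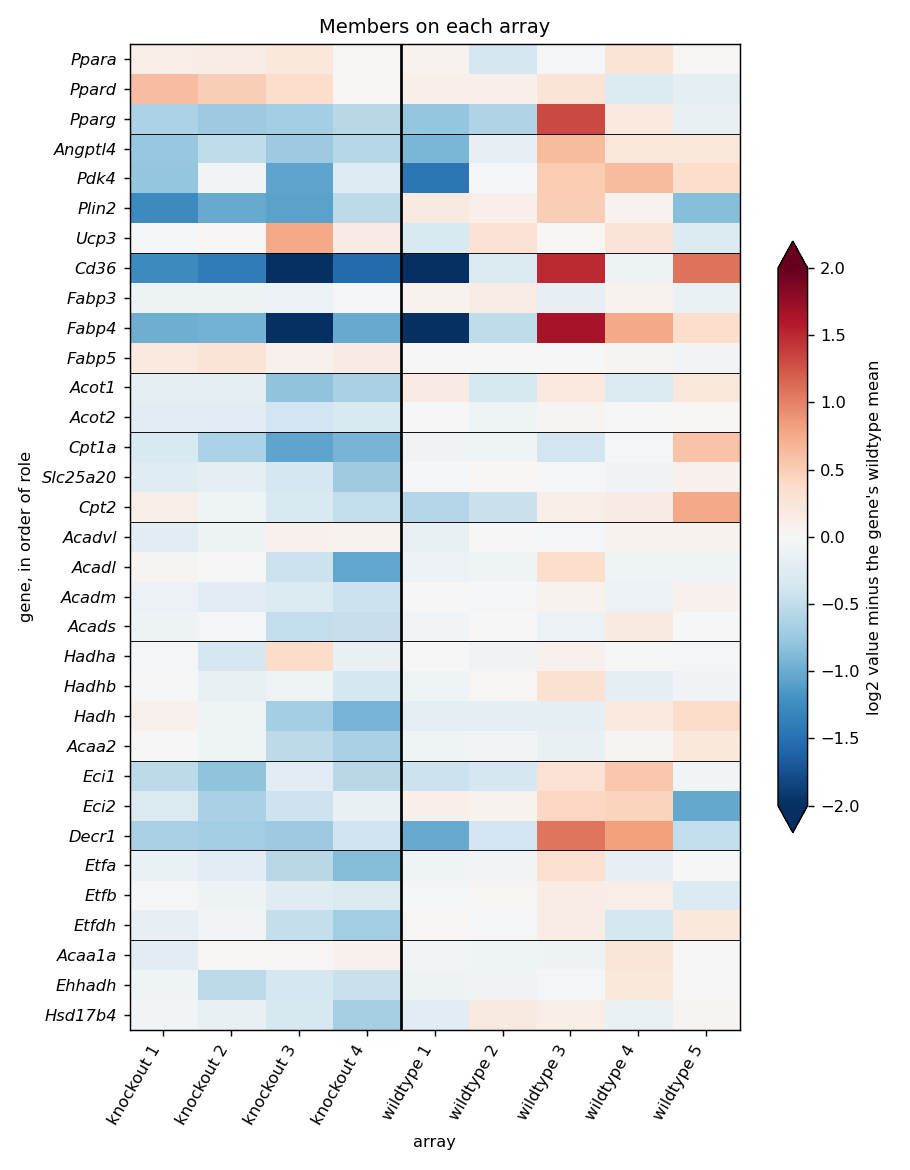
Log2 value of each of the 33 members (rows, by role) on each of the 9 arrays (columns), minus the wildtype mean of the gene, with red above and blue below it, and colours capped at 2. By the median over the mitochondrial rows knockout arrays 3 and 4 are the lowest (-0.41 and -0.49), though not in every row, while Fabp4, Cd36, Decr1 and Pdk4 have the largest SDs among the wildtype arrays.

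Other genes of these pathways were read from the same fit. Of 95 such genes 84 were measured, 57 of them below 0, with a median difference of -0.13, and 13 were lower and 4 higher with an unadjusted p under 0.05. Over all genes 10.7% were lower and 7.08% higher by that rule, and 18.6% of the brighter genes were lower, so these counts lie near the background. The 1 that passed the adjusted threshold was Echs1, the mitochondrial enoyl-CoA hydratase that takes the second step of the cycle on short chains. Echs1 fell by 0.74, from 7.95, 7.92, 8.17, 8.03 and 8.21 in wildtype to 7.54, 7.31, 7.29 and 7.12 in knockout, with a limma adjusted p of 0.0189. It did not pass without knockout array 2 (limma adjusted p of 0.0667), knockout array 4 (0.0528) or wildtype array 4 (0.0508). It also did not pass with the Xist level as covariate (limma adjusted p of 0.451), with the replicate block (0.0962) or without wildtype arrays 3 and 4 together (0.128). Beside it among other mitochondrial oxidation and ketone body genes, Acad11 differed by -0.82 and Hsd17b10, a dehydrogenase of branched-chain oxidation, by -0.68 with a limma adjusted p of 0.0556. That list had 16 measured genes, 12 of them below 0, and a median of -0.31.

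The counts of the single lists stand beside the same background, 10.7% of all genes lower, 7.08% higher and 18.6% of the brighter genes lower. Among 18 measured genes of peroxisomal oxidation, 5 were lower and 1 higher with an unadjusted p under 0.05 and 0 passed the adjusted threshold in limma. The largest differences were -0.90 for Scp2, which carries out peroxisomal thiolysis of branched chains, and -0.81 for Hacl1. Of 13 genes of fatty acid activation and transport, 2 were lower by that unadjusted rule, and the largest differences were -0.86 for Acsl4 and -0.81 for Acsl6, both acyl-CoA synthetases. None of 14 receptor partners, coactivators and corepressors reached an unadjusted p under 0.05 in limma. Sirt1 and Lpin1 differed by -0.61 and -0.50 there. Of 23 further PPAR targets 1 was lower and 2 higher with an unadjusted p under 0.05, and the median was -0.06. Their largest differences were in genes of adipocytes, -3.06 for Adipoq and -1.70 for the lipoprotein lipase gene Lpl.

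Markers of other cells that use these genes gave the following values. Sebocyte markers read lower for 5 of 7, with a median difference of -0.06. Far2, which makes fatty alcohols, fell by 1.81 with a limma adjusted p of 0.0200. The 2 that read higher, Scd3 and Elovl3, differed by 0.14 and 0.04. The mean of the sebocyte list was 4.68 to 4.97 in knockout and 4.87 to 5.63 in wildtype. Basal keratinocyte markers read lower for 7 of 8, 5 with an unadjusted p under 0.05 and 0 past the adjusted threshold in limma. By that unadjusted rule 10.7% of all genes and 18.6% of the brighter genes were lower. Krt5 and Krt14 differed by -0.34 and 0.01, with intervals that included 0. The mean of the basal list did not overlap, being 6.52 to 6.82 on knockout arrays and 7.02 to 7.86 on wildtype arrays. Suprabasal markers had a median difference of -0.01. Skeletal muscle markers, relevant to Fabp3 and Ucp3, had a median of -0.02, but their level was uneven between arrays. The mean of the muscle list was 5.67, 5.54, 4.33 and 4.30 on knockout arrays 1 to 4. On the wildtype arrays it ran from 3.85 on array 5 to 6.41 on array 4. Brown adipocyte markers had a median of 0.14. Endothelial markers, relevant to Fabp4 and Cd36, had a median of -0.04, with 7 of 10 below 0. Their differences ran from -0.62 for Cldn5 to 0.11 for Tek. Some endothelial markers lay near the low end of the table, such as Tie1 and Pecam1, with knockout means of 2.14 and 2.51. The median was 0.37 for fibroblast markers and -0.09 for Langerhans cell and macrophage markers. The part of these cell types in the members' differences was not tested.

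The members with several probe sets numbered 20. Of their 28 dimmer probe sets, 21 had the sign of the brightest one and 12 had an unadjusted p under 0.05. Among those 12, probe sets of Ppard (0.40), Fabp5 (0.29) and Fabp4 (0.40) were higher in knockout and the rest lower. That of Fabp4 went against its brightest probe set. Read from 1 probe set per gene, 10.7% of all genes were lower and 7.08% higher by that rule. With the Xist level as a covariate, which sets the knockout arrays mainly against wildtype array 4, 30 of the 33 members read lower, with a median of -0.31, and 5 were lower with an unadjusted p under 0.05, where 4.5% of all genes were. None passed the adjusted threshold in limma in that fit, in which the lowest adjusted p of a member was 0.456, for Eci1.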

How the data were processed

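Expression was measured on 9 Affymetrix Mouse Genome U430 2.0 arrays, 4 knockout and 5 wildtype, grouped by sample title. The authors deposited log2 expression values for 45037 probe sets. Per the submitters' processing notes affy was used, and no version is stated. How background, normalization and probe summary were handled is not given in the sources used. Values ran from 1.43 to 14.46 and were used as deposited. Precision is limited by the number of arrays.

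The platform annotation gave 1 gene for 34945 probe sets, several for 932 and none for 9160. Symbols were updated through gene numbers of the GRCm38.p6 table. The brightest probe set stood for each of 18193 genes. The test was limma's moderated one (version 3.58.1, R 4.3.3, genotype as the only term) with Benjamini-Hochberg adjustment and a threshold of 0.05. Code was tested on simulated data. Promoter windows came from RefSeq on GRCm38.p6.

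Members and gene lists were chosen with earlier results of these data known. Named genes were all measured members, other pathway genes that passed or had the 2 largest differences of their list, and markers beside a result. Far2, the sebocyte marker that passed, the pathway gene Hsd17b10 and the dimmest Hadhb probe set were named after their values were seen. Alternatives were other probe set summaries, quantile normalization, median centring, a filter on level, other variance settings, the Xist level as covariate, the replicate number as a block and each array left out.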

Additional observations from a re-analysis of the deposited data

Results flagged for a closer look

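For each member, the highest and lowest array of each group was compared with the range of its group, and in 3 of 66 groups the gap to the next array was larger than expected for that number of arrays. Chance singles out about 1 in 20 groups. Fabp4 on knockout array 3 read 5.78, where the other knockout arrays read 7.93 to 7.99. Acadl on wildtype array 3 read 8.82, where the other wildtype arrays read 8.36 to 8.39. Eci2 on wildtype array 5 read 4.33, where the other wildtype arrays read 5.42 to 5.80.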

How the results depend on the processing

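Over all genes, 226 passed. The count was 498 with every probe set tested, 1644 with array weights, 9 with the Xist level as covariate, 119 with the replicate number as a block, and 49 with wildtype arrays 3 and 4 left out together, an alternative chosen after seeing the data. Of the 33 members 0 passed, but 4 did with array weights (Cpt1a, Eci2 and Plin2 lower, Ppard higher), where 1644 of all 18193 genes passed. With the replicate block 1 member passed (Plin2), where 119 of all genes did. Of the other pathway genes 1 passed, 2 with quantile normalization, 2 among genes above the median level, 9 with array weights and 0 with the Xist level, the replicate block or wildtype arrays 3 and 4 left out. Leaving out each array in turn gave 62 to 281 genes over all genes, 0 to 1 for the members and 0 to 2 for the other pathway genes. The median difference of the members ran from -0.40 without knockout array 1 to -0.16 with array weights. The cause of these shifts was not tested.

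Single members changed sign as follows. Ppara was -0.11 with the Xist level, Fabp3 was 0.085 with the mean of its probe sets, and Cpt2 was 0.17 with array weights. Fabp4 was 0.40 when probe sets with the suffix _x_at, _s_at or _a_at were set aside. That removed its brighter pair, and 0.40 is the value of a dimmer probe set with means of 3.81 in knockout and 3.41 in wildtype. With quantile normalization Acadvl was 0.055, Hadha 0.052 and Acaa1a 0.098. Without wildtype arrays 3 and 4 Decr1 was 0.0045 and Acaa1a 0.028. With each array left out in turn Acadvl ran from -0.080 to 0.018, Hadha from -0.17 to 0.058 and Acaa1a from -0.056 to 0.050. The shared replicate numbers did not pair the samples: correlations of deviations by number were -0.21, -0.10, -0.21 and 0.18, and the sample numbered 4 alone correlated best with its own number.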
